A study of Mus musculus with 4 samples.

Results

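The nuclear genes for subunits of the mitochondrial respiratory chain and ATP synthase were examined for dimethylation of histone H3 at lysine 79 (H3K79me2). They were chosen by symbol alone, as the protein-coding RefSeq genes of the mouse assembly GRCm38.p6 whose names follow the naming of these subunits (Nduf, Sdh, Uqcr, Cox and Atp5 symbols). The rule gave 87 of the 21887 coding genes on the autosomes 1 to 19 and on X and Y. By symbol, 40 belong to complex I, 4 to complex II, 8 to complex III, 18 to complex IV and 17 to complex V. The mitochondrially encoded subunits are outside the rule, as are nuclear subunits with other symbols, such as Cyc1 (cytochrome c1 of complex III).

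H3K79me2 was mapped by chromatin immunoprecipitation and sequencing (ChIP-seq) in C57BL/6 mouse thymocytes at the DN3 stage, an early stage of T cell development without CD4 or CD8. The cells had been grown in vitro from haematopoietic stem cells (HSCs) on OP9-DL1 cells, a stromal feeder line that presents a Notch ligand, with Flt-3L at 5 ng/mL and IL-7 at 2 ng/mL. The control culture received DMSO, the vehicle. The inhibitor culture received A939572, which blocks the stearoyl-CoA desaturase SCD1, an enzyme that makes oleic acid. Each condition has 1 ChIP library, described here by its deposited list of broad peaks. The 2 input libraries are not analysed here. With 1 library per condition no replicate error can be given, so every difference below is between these libraries and carries no test. No label names the number of animals or cultures behind a library, and feeder cells were present in both cultures.

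The respiratory chain passes electrons from NADH through complex I, or from succinate through complex II, to ubiquinone, then through complex III and cytochrome c to oxygen at complex IV. Complexes I, III and IV pump protons across the inner mitochondrial membrane, and complex V, the ATP synthase, uses the gradient to make ATP. H3K79me2 is laid down by DOT1L, chiefly along the first stretch of genes that are being transcribed, and nuclear respiratory chain genes are transcribed in most tissues.

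The peak lists differed over the whole genome, and the values of the subunit genes stand against that background. Control peaks numbered 124954 and averaged 1879 bp in width, inhibitor peaks numbered 35010 and averaged 6672 bp, yet they covered nearly the same length, 235 Mb and 234 Mb. Peaks with a q-value of at most 0.05, called strong peaks here, made up 0.643% of the control list (803 peaks, 11.1 Mb) and 18.6% of the inhibitor list (6527 peaks, 153 Mb). Read depth is not in the lists, so its part in the differences was not tested. Strong control peaks lay on 8 of 12 genes of the T lineage and strong inhibitor peaks on 10 of 12. The shares of all coding genes were 3.92% and 34.7%. Strong peaks on genes of other cells the cultures could hold numbered 0 in the control list, near the share of all coding genes. In the inhibitor list they lay on 2 of 10 feeder genes (Thbs1 and Pdgfrb, with Col1a1, Col3a1, Sparc, Pdgfra and Cxcl12 without any peak in either list), 1 of 7 B lineage genes (Blk, with Cd79a without any peak) and 2 of 7 myeloid genes (Cd68 and Fcer1g, with Cebpa without any peak). Counting peaks of any strength, 5 of 10 feeder genes had one in the control list and 2 of 10 in the inhibitor list. Neither share was above that of all coding genes, 55.3% and 51.4%. Fap had more control coverage, 48.0% against 0%. The part of other cells in the results was not tested.

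Most subunit genes were covered by H3K79me2 peaks over most of their length in the inhibitor list, and few were in the control list. A gene is called marked where peaks cover at least 50% of its body. In the inhibitor list 69 of 87 subunit genes were marked (79.3%), against 26.1% of all coding genes and 24.9% of coding genes of at most 20 kb. In the control list 15 of 87 were marked (17.2%), against 5.47% and 5.87%. The subunit genes are short, with a median body of 7.13 kb against 17.2 kb for all coding genes and 76 of 87 at or under 20 kb, which is why the short genes are given as a second background. The median subunit gene was 14.2% covered by control peaks and 83.1% by inhibitor peaks. For all coding genes the medians were 2.24% and 0.446%.

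Inhibitor coverage exceeded control coverage by 25 percentage points or more for 67 of 87 subunit genes (77.0%), where 30.1% of all coding genes and 29.3% of short genes passed this step. The opposite difference of that size was found for 1 of 87, Ndufb4c, against 3.07% and 3.89%. The median difference, inhibitor minus control, was 54.8 points over the subunit genes and 0 over all coding genes. Sdhc lay just inside the 25-point step, at 25.1 points, and Cox5a just outside it, at 24.7 points. Of the 19 genes within 25 points, 9 had more inhibitor coverage, 7 had a difference of 0 (Atp5l and the 6 genes without a peak in either list) and 3 had more control coverage (Cox6a2, Cox7b2 and Cox7c).

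With strong peaks alone the contrast was larger. Some strong peak lay on 75 of 87 subunit genes in the inhibitor list (86.2%), against 34.7% of all coding genes and 29.6% of short genes, and on 6 of 87 in the control list (6.90%), against 3.92% and 3.08%. Strong peaks marked 60 of 87 in the inhibitor list (background 19.6% and 20.8%) and 1 of 87 in the control list, Atp5l (background 1.33% and 1.54%). Counted on strong peaks, 70 of 87 had at least 25 points more coverage with the inhibitor (26.3% and 25.1%) and 0 had that much more coverage in the control list (0% of all coding genes and 0% of short genes). Peaks of any strength told the lists apart less: they touched 60 of 87 subunit genes in the control list (55.3% of all coding genes, 33.1% of short genes) and 78 of 87 in the inhibitor list (51.4% and 40.7%). Of the 60 genes touched by control peaks, 6 carried a strong one. With only peaks of a fold enrichment of at least 3, the number of subunit genes with 25 points more inhibitor coverage was 33 of 87, against 12.9% of all coding genes. Fold enrichment is the authors' deposited value for a whole peak.

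**Figure D1:**
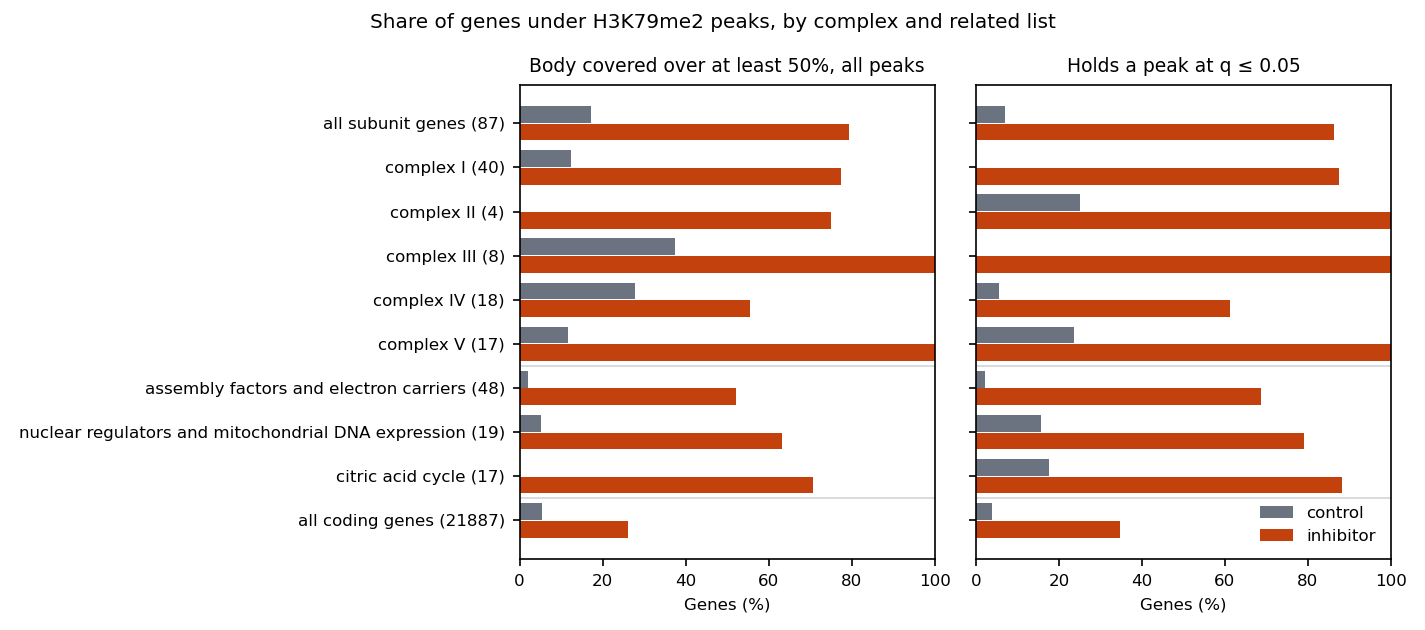
Percent of genes (x axis) that passed each call in each list, by group of genes (y axis) for the subunit genes in all and by complex, 3 related lists and all coding genes. The left panel counts marked genes and the right panel genes with a strong peak, with 1 bar per list. The inhibitor list marked 69 of 87 subunit genes and the control list 15 of 87, while 26.1% and 5.47% of all coding genes were marked.

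Complex I, the NADH dehydrogenase, gave 31 of 40 marked genes in the inhibitor list and 5 of 40 in the control list. Its median coverage was 8.24% by control peaks and 75.5% by inhibitor peaks, and 32 of 40 genes were at least 25 points higher with the inhibitor. Strong peaks lay on 35 of 40 in the inhibitor list and 0 of 40 in the control list, against 34.7% and 3.92% of all coding genes. The 0 of 40 was thus near the share of all coding genes. The redox core holds the subunits that carry the electrons. Ndufs1, the largest iron-sulphur subunit (chromosome 1, 63143592 to 63176822), was 18.9% covered by control peaks and 79.3% by inhibitor peaks.

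Ndufs3 was at 0% with control peaks and 52.8% with inhibitor peaks. Ndufs8, another iron-sulphur subunit, was at 0% and 53.4%, and Ndufs7, which holds the last iron-sulphur cluster before ubiquinone, at 6.02% and 70.8%. Ndufv2 was at 64.8% with control peaks and 100% with inhibitor peaks, under the widest strong peak on any subunit gene, which spanned 70.8 kb with Ankrd12. Ndufv1, which binds NADH and the flavin, had the least contrast of the redox core genes named here. It was covered over 28.2% and 33.4% of its body, although its inhibitor peak was strong (fold enrichment 2.38, 1.76 kb wide) and its control peak was not (1.60, 1.48 kb).

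Among the accessory subunits, which surround the redox core, Ndufa2, Ndufb7, Ndufb10 and Ndufc1 had no control peak and were wholly covered in the inhibitor list. These were the largest differences of complex I in favour of the inhibitor list. Ndufb1, Ndufb11 and Ndufa4 were marked in both lists, with control coverage of 85.6%, 89.9% and 66.8% and inhibitor coverage of 100% for each. Ndufa4 is counted here by its symbol, although its protein is known as a part of complex IV. Ndufb2 and Ndufs6 were marked in the inhibitor list, at 66.7% and 82.3%, without a strong peak. The 21 accessory genes not named otherwise ran from 0% to 38.5% in the control list (Ndufa6 the highest), and their inhibitor coverage from 30.6% (Ndufa9) to 100%, and all 21 carried a strong inhibitor peak. Among them Ndufs4, needed for a stable complex and the longest gene with a strong peak at 100.3 kb, was at 33.9% and 76.3%. A strong inhibitor peak with under 50% of the body covered was seen in 6 complex I genes: Ndufa9, Ndufa11, Ndufa12, Ndufb8, Ndufs5 and Ndufv1.

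Of the 40 genes, 3 had no inhibitor peak. Ndufa4l2, a relative of Ndufa4 known to be induced by hypoxia, and Ndufb4b had no peak in either list. Ndufb4c was the 1 subunit gene with much more coverage in the control list, 100% against 0%. Its body of 0.485 kb overlaps Mroh5 and was covered by a single weak control peak of 1.35 kb (fold enrichment 1.74). Ndufb4b and Ndufb4c share their name with Ndufb4, and how the aligner placed reads from such copies was not tested.

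**Figure D2:**
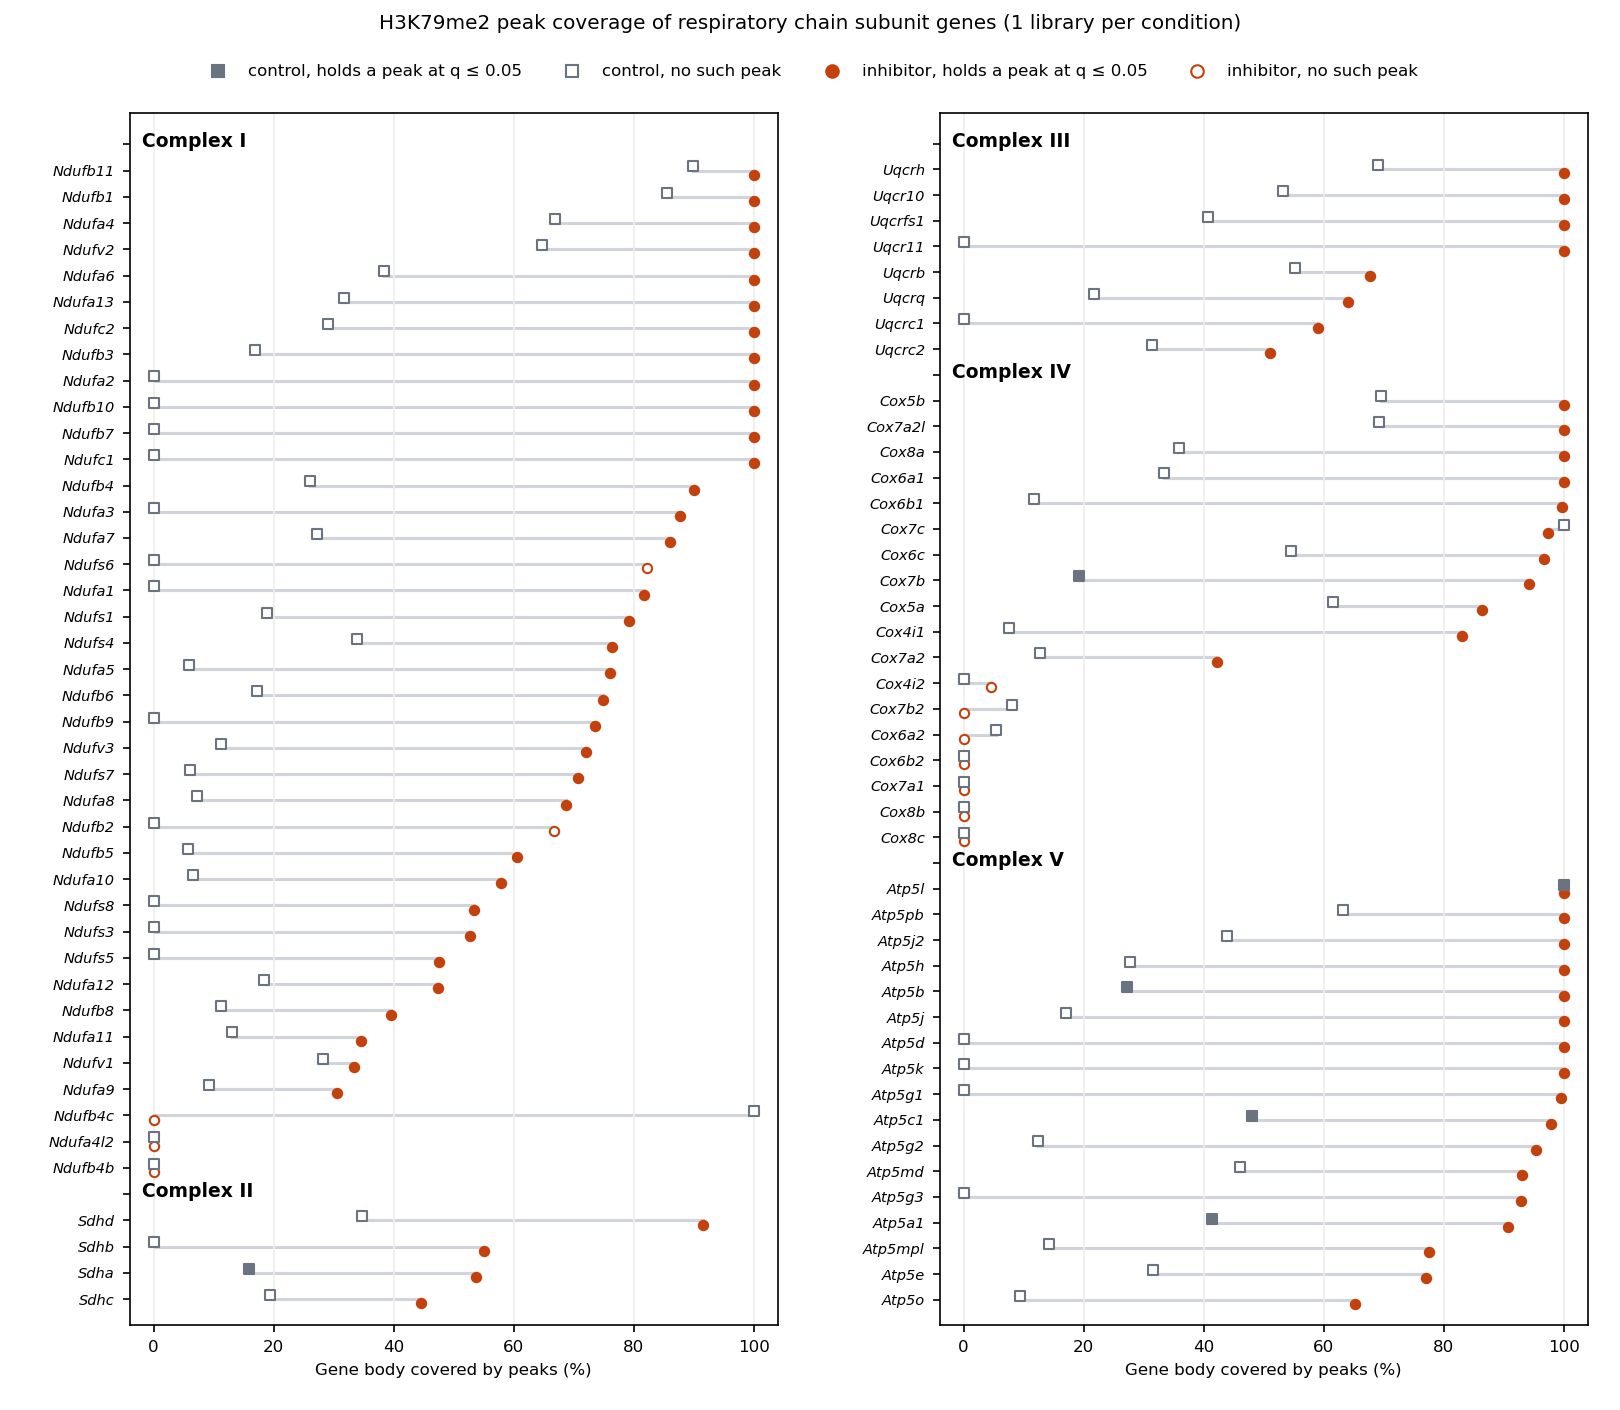
Percent of each gene body under peaks (x axis, all peaks) for 86 of the 87 subunit genes (y axis), grouped by complex, with a square for the control list and a circle for the inhibitor list, joined by a line and set slightly apart in height. Filled points mark genes with a strong peak in that list. The inhibitor point lies to the right for most genes, while Ndufb4c is the 1 gene with a long line in the other direction and 6 genes have both points at 0%.

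Complex II, the succinate dehydrogenase, has the fewest genes, and in all 4 inhibitor coverage was at least 25 points higher. Sdha, which holds the flavin and the succinate site, was 15.9% covered by control peaks and 53.7% by inhibitor peaks. Sdhb, the iron-sulphur subunit, was at 0% and 55.1%. The membrane anchors Sdhc and Sdhd were at 19.4% and 44.5%, and at 34.8% and 91.5%. Strong inhibitor peaks lay on all 4, and Sdha also had a strong control peak of 6.36 kb (fold enrichment 2.29). That control peak lay over the start of Sdha and reached Ccdc127, whose start lies within 1 kb on the other strand. With the first 5 kb of each gene alone, or the better covered 5 kb end for Sdhc, whose strand was not known here, inhibitor coverage of the 4 genes ran from 99.2% to 100%. The uncovered parts of Sdha, Sdhb and Sdhc, whose bodies run from 17.9 to 28.0 kb, lay almost wholly outside those 5 kb.

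In complex III, the ubiquinol to cytochrome c reductase, all 8 genes were marked by inhibitor peaks, and all 8 carried strong ones. In the control list 3 of 8 were marked (Uqcr10, Uqcrb and Uqcrh) and 0 carried a strong peak. The 0 of 8 was near the 3.92% of all coding genes with a strong control peak. Uqcr10 was at 53.2% and 100%, Uqcrb at 55.3% and 67.7%, and Uqcrh, which helps dock cytochrome c, at 69.0% and 100%. Uqcrc1, a core subunit, was 0% covered by control peaks and 59.1% by inhibitor peaks. Uqcrc2, the other core subunit, was at 31.4% and 51.0%, a difference under 25 points. Uqcrfs1, the Rieske iron-sulphur protein that passes electrons on towards cytochrome c, was at 40.7% and 100%. The largest difference was that of the small subunit Uqcr11, at 0% and 100%. Uqcrq, a small subunit next to cytochrome b, had the highest enrichment of the complex, with an inhibitor peak of 1.86 kb at a fold enrichment of 3.71 inside the gene, and was covered over 21.8% and 64.1%.

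Complex IV, cytochrome c oxidase, held genes with and genes without strong H3K79me2 peaks. Inhibitor peaks marked 10 of 18 and control peaks 5 of 18, with median coverage of 84.7% and 12.2%. Several of its subunits exist as isoforms with a wide or a restricted tissue range. Of the 7 genes known for a restricted range, Cox4i2 (lung and hypoxia), Cox6a2, Cox7a1 and Cox8b (muscle) and Cox6b2, Cox7b2 and Cox8c (testis), 0 had a strong peak in either list. All 11 other complex IV genes carried a strong peak in the inhibitor list, and 1 of them did in the control list, Cox7b. Over all coding genes, 34.7% held a strong inhibitor peak and 3.92% a strong control peak. The 0 of 7 in the control list was thus near the share of all coding genes. This grouping follows textbook knowledge of the isoforms and was made with the results known, so it is a description. Coverage of the 7 restricted genes ran from 0% to 8.03% in the control list and from 0% to 4.52% in the inhibitor list. Coverage of the other 11 ran from 7.49% to 100% and from 42.3% to 100%.

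The isoform pairs show the same split gene by gene. Cox4i1, the common form of a nuclear regulatory subunit, was 7.49% covered by control peaks and 83.1% by inhibitor peaks, while Cox4i2 was at 0% and 4.52%. Cox6a1 was at 33.4% and 100%, and its muscle form Cox6a2 at 5.47% and 0%. Cox6b1, on the side of the intermembrane space, was at 11.8% and 99.7%, and its testis form Cox6b2 at 0% in both lists. The common forms lay high in the inhibitor list and the restricted forms at or near 0 in both.

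Cox7a2 was at 12.7% and 42.3%, and its muscle form Cox7a1 at 0% in both lists. Cox7b was at 19.2% and 94.2%, and its testis form Cox7b2 at 8.03% and 0%, with 9 weak control peaks scattered over a body of 105 kb. Cox8a was at 35.8% and 100%, with Cox8b and Cox8c at 0% in both lists. Cox7a2 was the lowest of the common forms. Its annotated body reaches upstream of its promoter window to Tmem30a, and with the 5 kb at that annotated end the difference turned to -4.96 points.

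The 5 complex IV genes marked in the control list were marked in both lists. Cox5a was at 61.6% and 86.4%, Cox5b at 69.6% and 100%, Cox6c at 54.6% and 96.7%, Cox7a2l, an assembly factor of respiratory supercomplexes, at 69.3% and 100%, and Cox7c at 100% and 97.3%. With strong peaks alone the control values of all 5 were 0% and the inhibitor values ran from 82.9% for Cox5a to 100%. The control peaks on these genes covered much of the gene, but none was strong.

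Promoter sequences of 2 isoform pairs are shown because their genes stand at opposite ends of the inhibitor list. Each runs from 250 bases before to 30 bases after the RefSeq start site, 5′ to 3′ on the gene's strand, on GRCm38.p6. Capitals mark matches to the motifs named further below. Cox6b1 (chr7:30626085-30626364, minus strand) has an ETS match and Cox6b2 (chr7:4753065-4753344, minus strand) an SP/KLF match. Cox8a (chr19:7217587-7217866, minus strand) has an ETS match and Cox8b (chr7:140900417-140900696, minus strand) no match. In the full 300-base windows, CpG dinucleotides number 17 in Cox6b1 and 10 in Cox6b2, and 19 in Cox8a and 2 in Cox8b.
Cox6b1: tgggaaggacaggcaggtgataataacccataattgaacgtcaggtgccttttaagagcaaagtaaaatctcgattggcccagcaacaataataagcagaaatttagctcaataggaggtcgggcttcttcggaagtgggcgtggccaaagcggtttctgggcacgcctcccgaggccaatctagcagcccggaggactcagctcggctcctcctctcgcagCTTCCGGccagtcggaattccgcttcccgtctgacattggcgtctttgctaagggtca
Cox6b2: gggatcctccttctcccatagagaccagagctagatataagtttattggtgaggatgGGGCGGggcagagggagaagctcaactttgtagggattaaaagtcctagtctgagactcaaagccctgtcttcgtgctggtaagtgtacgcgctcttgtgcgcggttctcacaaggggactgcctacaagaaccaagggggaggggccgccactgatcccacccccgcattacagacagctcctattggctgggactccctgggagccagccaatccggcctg
Cox8a: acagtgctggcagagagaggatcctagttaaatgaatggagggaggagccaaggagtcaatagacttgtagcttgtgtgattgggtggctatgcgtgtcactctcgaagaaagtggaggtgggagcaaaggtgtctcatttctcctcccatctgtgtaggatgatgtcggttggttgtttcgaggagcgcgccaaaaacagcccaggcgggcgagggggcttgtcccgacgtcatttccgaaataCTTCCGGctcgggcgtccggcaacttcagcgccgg
Cox8b: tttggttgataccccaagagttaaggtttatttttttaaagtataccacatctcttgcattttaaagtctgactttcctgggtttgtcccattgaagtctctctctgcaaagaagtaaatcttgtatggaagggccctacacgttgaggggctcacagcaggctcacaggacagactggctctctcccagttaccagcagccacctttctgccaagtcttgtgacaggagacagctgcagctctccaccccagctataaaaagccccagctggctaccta

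CpG counts of the 2 sides overlapped when all isoforms with a RefSeq promoter were taken. They ran from 5 (Cox7b) to 32 (Cox6a1) in 5 common forms and from 2 (Cox8b) to 10 in 4 restricted forms, against a median of 13 over all 17492 promoters. Cox7b, with the fewest among the common forms, had a strong peak in both lists.

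Complex V, the ATP synthase, was covered most evenly in the inhibitor list: all 17 genes were marked and carried strong peaks, with coverage from 65.2% (Atp5o) to 100% and a median of 99.6%. The control median was 27.2%, with 2 genes marked (Atp5l and Atp5pb). It also held 4 of the 6 subunit genes with a strong control peak. Coverage was at least 25 points higher with the inhibitor in 16 of 17 genes, the exception being Atp5l, which was wholly covered in both lists.

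Genes of the catalytic head and its shaft differed in their control peaks. Atp5a1, the alpha subunit, was 41.4% covered by control peaks and 90.7% by inhibitor peaks. Atp5b, the catalytic beta subunit (chromosome 10, 128083307 to 128090388), was at 27.2% and 100%. Atp5c1, the gamma subunit that forms the central shaft, was at 48.1% and 97.8%. These 3 had a strong control peak, while Atp5d and Atp5e, further subunits of the same part, had none, at 0% and 31.6% control coverage and 100% and 77.0% inhibitor coverage. The control peak of Atp5b, chr10:128080912-128085235, had the highest −log10 q of any control peak on a subunit gene, 6.61, with a fold enrichment of 2.84. The inhibitor peak began within 10 bp of the same place, at 128080902, and ran 39.6 kb, over the whole gene and into Baz2a. Atp5l, a subunit of the membrane part, had the most enriched inhibitor peak of all subunit genes (fold enrichment 4.37, −log10 q 15.4, 15.7 kb), over a strong control peak of 9.59 kb (1.97).

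The c ring, the rotor in the membrane, is encoded by 3 genes for the same mature protein. Atp5g1 was 0% covered by control peaks and 99.6% by inhibitor peaks, Atp5g2 12.4% and 95.4%, and Atp5g3 0% and 92.9%. The 3 lie on different chromosomes and gave like values. The largest differences of the complex were those of Atp5d and Atp5k, both at 0% and 100%. Atp5j, whose start lies back to back with that of Gabpa, the DNA-binding subunit of the ETS factor GABP, was at 17.1% and 100%, and Gabpa at 10.9% and 52.1%, and 1 strong inhibitor peak of 18.6 kb ran over both.

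Strong inhibitor peaks on the subunit genes were enriched to about the same degree as those on other genes. The strongest inhibitor peak on each of the 75 genes had a median fold enrichment of 2.96 and a median −log10 q of 4.85, and the medians over all 7593 coding genes with a strong inhibitor peak were 2.90 and 4.59. By complex the median fold enrichment was 2.69 in I, 2.92 in II, 3.25 in III, 3.27 in IV and 3.19 in V. The medians lay close to those of all coding genes with a strong peak, while the shares of genes with one were 86.2% and 34.7%. Of the 6 strong control peaks, fold enrichments ran from 1.97 (Atp5l) to 2.89 (Cox7b), and widths from 1.29 kb (Cox7b) to 14.3 kb (Atp5c1).

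The strong inhibitor peaks were wide compared with the genes under them. Their median width was 10.6 kb (15.7 kb over all coding genes with one), and on 47 of 75 subunit genes the strongest peak was wider than the gene. On 42 of 75 a strong peak also overlapped another coding gene, so for these genes a peak cannot be given to the subunit gene alone, and on 33 of 75 it did not. The counts of 47, 42 and 33 were not made over all coding genes with a strong peak. Whether they are particular to the subunit genes is therefore not known. The bodies of 18 of 87 subunit genes (20.7%) themselves overlap another coding gene, near the 17.5% of all coding genes that do. No strong peak joined any pair of subunit genes. Atp5pb, at 63.3% and 100%, lay under a strong peak of 67.3 kb with 4 other coding genes, and Cox6a1 under one of 24.9 kb with 3 others (Srsf9, Gatc and Triap1). In Uqcrq and Ndufv1, by contrast, the strong peak lay within the gene or was shorter than it.

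**Figure D3:**
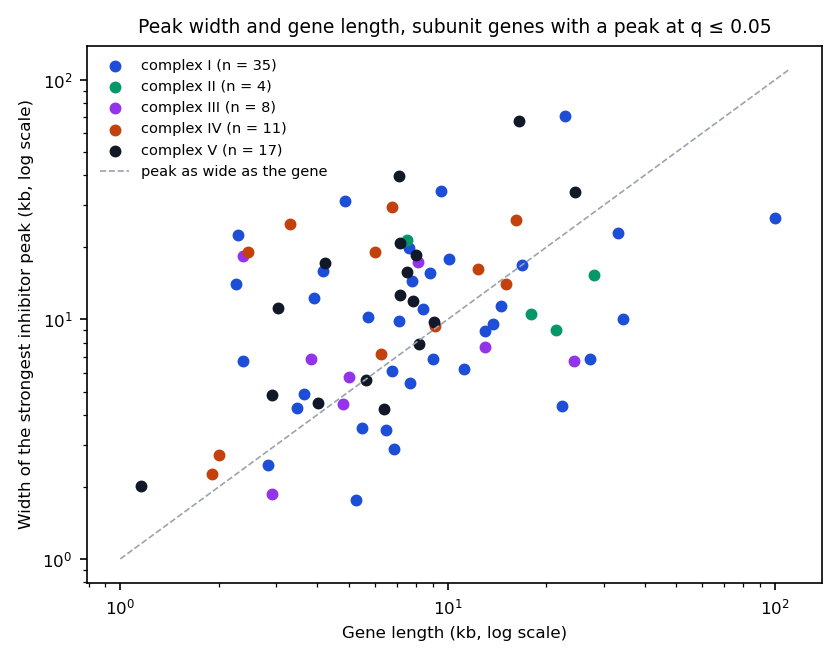
Width of the strongest inhibitor peak (y axis, kb) against gene length (x axis, kb), both on log scales, for the 75 subunit genes with a strong inhibitor peak, coloured by complex, with a dashed line where both are equal. The points of 47 genes lie above the line, the widest being that of Ndufv2 at 70.8 kb.

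Coverage was highest just downstream of the start in both lists. Strand, and so the start, was known for 70 of 87 subunit genes. The start here is the outer 5′ end of the annotated gene. In some genes it lies far from the start site of the promoter window, by 11569 bp in Cox7a2 and 3904 bp in Cox5a. Cox5a and Atp5g3 thus counted as uncovered at the start in the inhibitor list, although their promoter windows were wholly covered. The annotated start itself lay under a peak in 15 of 70 genes in the control list (7.24% of all coding genes with a strand) and 52 of 70 in the inhibitor list (27.3%). With strong peaks the counts were 4 of 70 (1.37%) and 50 of 70 (23.6%). At 1 kb downstream, 37 of 70 genes (52.9%) were covered in the control list and 64 of 70 (91.4%) in the inhibitor list. All coding genes stood at 17.6% and 39.3% there. At 5 kb downstream the control share of the subunit genes, 11.4%, was below that of all coding genes, 13.6%, while the inhibitor share was 62.9%, against 31.3%. The control peaks on these genes thus lay mostly in the stretch just after the start, and inhibitor coverage went on further into the gene.

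Upstream of the start the inhibitor list also stood higher. Strong inhibitor peaks covered the point 5 kb upstream in 24.3% of the subunit genes, 71.4% at the start, 87.1% at 1 kb, 61.4% at 5 kb and 35.7% at 10 kb downstream. For all coding genes with a strand the shares were 10.3%, 23.6%, 30.9%, 25.4% and 20.3% in the same order. Positions beyond the end of a short gene are outside it, so the far values include intergenic sequence and neighbours. When each body was divided at its middle, the 5′ part had the higher coverage in 39 genes and the 3′ part in 8 in the control list, and in 30 and 8 in the inhibitor list. These are 55.7% and 11.4% of the 70 genes in the control list, against 36.7% and 18.2% of all coding genes with a strand. In the inhibitor list they are 42.9% and 11.4%, against 36.6% and 8.51%. Genes with equal coverage of both parts, 32 of 70 and 9604 of 17492 in the inhibitor list, are in these totals. The median 5′ part of all coding genes was 0% covered in both lists, so ties there differ from ties among well covered subunit genes, and the shares are not like for like. Median coverage of the 5′ part was 21.2% with control peaks and 100% with inhibitor peaks, and of the 3′ part 0% and 89.6%.

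**Figure D4:**
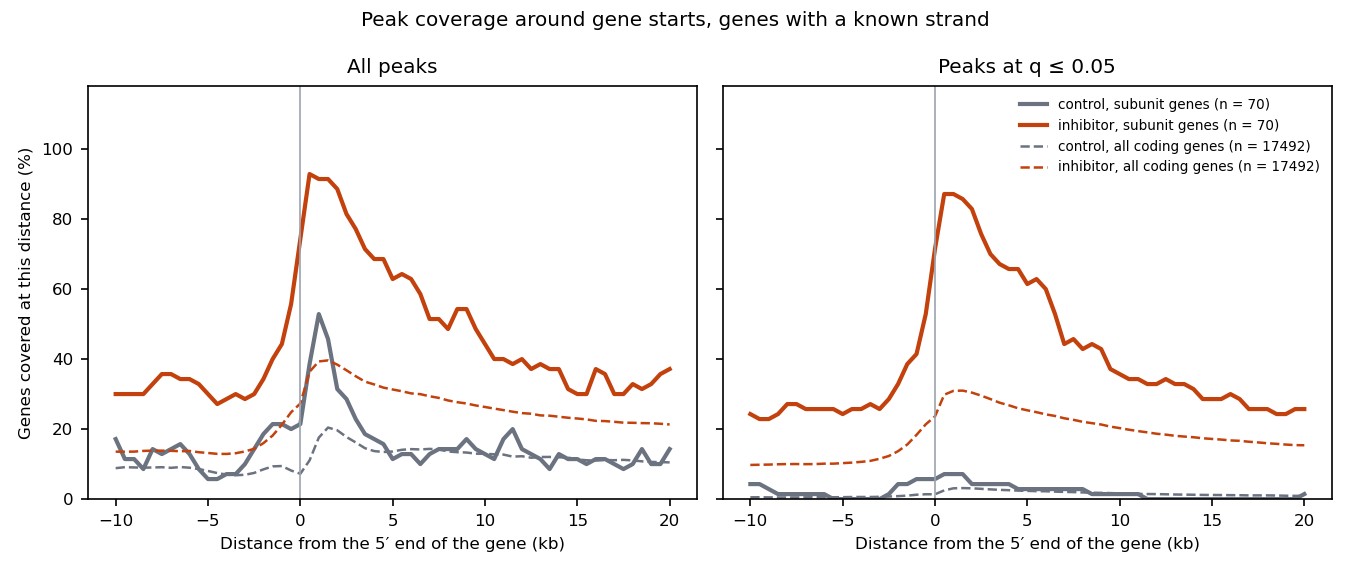
Percent of genes covered by peaks (y axis) at each distance from the annotated start in kb (x axis), for 70 subunit genes and 17492 coding genes with a known strand, with all peaks on the left and strong peaks on the right. In both lists the subunit genes are highest within about 1 kb downstream of the start, at 52.9% with control peaks and 91.4% with inhibitor peaks at 1 kb with all peaks.

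The subunit genes often begin close to another gene. The start of 23 of 70 (32.9%) lay within 1 kb of the start of a coding gene on the other strand, against 10.3% of all coding genes with a strand. Examples, picked after the partners were seen, are Ndufb5 facing Mrpl47, a mitochondrial ribosomal protein gene, Ndufa4 facing Phf14 and Ndufb1 facing Cpsf2. The partners were not counted by function. Coverage on both sides of such a start can come from either gene, and the upstream values above were not separated by it.

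In the promoter windows (300 bases, both strands searched), motifs of factors known for nuclear respiratory genes were found as follows. The palindromic NRF1 consensus of 10 bases, GCGCA followed by its reverse complement, was in 5 of 70 subunit promoters (7.14%) and 1.33% of all. CCGGAAG, bound by ETS factors such as GABP, was in 16 of 70 (22.9%) and 11.9% of all. AAGATGGCG, the YY1 motif, was in 6 of 70 (8.57%) and 1.92% of all. GGGCGG, the SP/KLF motif, was in 28 of 70 (40.0%) and 46.3% of all, so it was no more common in the subunit promoters. None of the 4 strings contains another, and a match is a description of the letters only.

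Base composition was compared between subunit genes with and without a strong inhibitor peak. The ratio of observed to expected CpG had a median of 0.828 in 63 genes with such a peak (0.368 to 1.23) and 0.432 in 7 without (0.115 to 0.871), so the ranges overlapped. The median over all promoters was 0.577. All 16 promoters with an ETS match and all 5 with an NRF1 match were among the 63, while 1 of 6 with a YY1 match and 2 of 28 with an SP/KLF match were among the 7. Since 63 of all 70 promoters are on the first side, most matches to any motif would lie there. A link between motif and peak was not tested. Cox6a1 (chr5:115348929-115349208, minus strand) holds NRF1, ETS and SP/KLF matches together and stood at 33.4% and 100% coverage. Atp5b (chr10:128083057-128083336, plus strand), with a strong peak in both lists, holds SP/KLF matches alone. The capitals mark these matches.
Cox6a1: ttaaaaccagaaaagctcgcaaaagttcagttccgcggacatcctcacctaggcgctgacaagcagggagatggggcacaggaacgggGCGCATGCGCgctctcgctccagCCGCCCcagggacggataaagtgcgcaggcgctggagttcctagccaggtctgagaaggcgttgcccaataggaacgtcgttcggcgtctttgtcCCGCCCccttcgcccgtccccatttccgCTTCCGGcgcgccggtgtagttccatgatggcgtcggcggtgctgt
Atp5b: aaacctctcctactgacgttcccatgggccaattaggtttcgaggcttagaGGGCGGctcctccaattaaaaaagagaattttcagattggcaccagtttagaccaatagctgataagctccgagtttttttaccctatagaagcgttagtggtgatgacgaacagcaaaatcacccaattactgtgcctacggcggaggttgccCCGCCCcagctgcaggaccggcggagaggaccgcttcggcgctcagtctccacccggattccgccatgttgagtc

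Genes that work with the subunits also had more inhibitor than control coverage. They were not marked in the control list more often than all coding genes. Strong control peaks, however, lay on larger shares of the regulators and citric acid cycle genes than of all coding genes. With control coverage given first and inhibitor coverage second, the lists read as follows. Of 48 assembly factors and electron carriers, which build the complexes or pass electrons between them, control peaks marked 1 (2.08%, against 5.47% of all coding genes) and inhibitor peaks 25 (52.1%, against 26.1%). Strong peaks lay on 1 and 33 (3.92% and 34.7% of all coding genes), and 31 were at least 25 points higher with the inhibitor against 0 with the control. All coding genes stood at 30.1% and 3.07% for these differences, so the 0 was near the share of all coding genes. Median coverage was 3.53% and 50.9%. Surf1, an assembly factor of complex IV, was at 0% and 100%, Cox17, a copper chaperone, at 23.5% and 100%, and Cycs, cytochrome c itself, at 40.6% and 78.2%. Cyc1, at 0% and 99.6%, was counted in this list although it encodes a subunit of complex III. Nubpl, an assembly factor of complex I with a body longer than any subunit gene, was at 14.4% and 0.598%.

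Of 19 nuclear regulators and genes of mitochondrial DNA expression, control peaks marked 1 (5.26%, against 5.47% of all coding genes) and inhibitor peaks 12 (63.2%, against 26.1%). Strong peaks lay on 3 (15.8%, against 3.92% of all coding genes) and 15 (78.9%, against 34.7%). At least 25 points more coverage with the inhibitor was found for 12 (30.1% of all coding genes). With the control it was found for 0, near the 3.07% of all coding genes. Tfam, which packages mitochondrial DNA, was at 15.6% and 74.9%, Esrra, a nuclear receptor for these genes, at 0% and 97.4%, and Nrf1 at 35.7% and 71.5%. Yy1 was at 98.8% with control peaks and 100% with inhibitor peaks. Ppargc1a, a coactivator abundant in muscle and brown fat, was at 4.66% and 0%. Of 17 citric acid cycle genes, control peaks marked 0 (against 5.47% of all coding genes) and inhibitor peaks 12 (70.6%, against 26.1%). Strong peaks lay on 3 (17.6%, against 3.92% of all coding genes) and 15 (88.2%, against 34.7%). Coverage was at least 25 points higher with the inhibitor in 14 (30.1% of all coding genes) and with the control in 0 (3.07%). Ogdh, a subunit of the oxoglutarate dehydrogenase, was at 10.6% and 75.1% and Mdh2, the mitochondrial malate dehydrogenase, at 0% and 64.3%. The subunit genes had larger shares of marked genes in the inhibitor list, 79.3%, than these lists, at 52.1%, 63.2% and 70.6%. By other calls the 17 citric acid cycle genes stood slightly higher. A strong inhibitor peak lay on 88.2% of them, against 86.2% of the subunit genes (68.75% and 78.9% in the other lists). The 25-point step towards the inhibitor was passed by 82.4%, against 77.0% (64.6% and 63.2%). The lists were not matched for gene length, and the difference between lists of genes was not tested.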

How the data were processed

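Peaks of 2 H3K79me2 ChIP libraries, control and inhibitor, were analysed. Their 2 inputs are not analysed here. The submitters' processing notes name BWA, MACS2 2.1.0 and the build mm10 but not their roles. Which options and which background the peak calling used is not stated in the labels or headers. The deposited lists give for each peak the authors' fold enrichment (a ratio), and the deposited −log10 p and −log10 q. The deposited score, the whole part of 10 times −log10 q, was not used. Each list reaches down to a −log10 p of 1.00 and so includes weak peaks. Neither gives read counts, so depth and its precision are unknown.

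Touching peaks were merged and intersected with gene bodies from the RefSeq gene table (assembly GRCm38.p6, which corresponds to mm10). The computations used pandas 2.3.3, numpy 2.4.6 and scipy 1.17.1 under Python 3.11.15, and figures matplotlib 3.10.9. Covered percent was computed for all 21887 coding genes. A gene was marked at 50% covered and a difference was called at 25 points, and both were repeated for peaks with q of at most 0.05. Strand and promoters came from the RefSeq promoter table, which holds 17492 of the coding genes and 70 of the 87 subunit genes. On simulated peaks, the covered percent equalled a base-by-base count of the same peaks for 400 of 400 genes. The members, lists, motifs and thresholds were chosen with earlier results of these data known. Named genes were the core subunits by role, the isoforms of complex IV, genes with a strong control peak, the largest differences of each complex in each direction and genes without an inhibitor peak. Others named were chosen after their values were seen. 1 subunit gene was counted but its own values are not reported here. Pseudogenes of the same naming were left out. Alternatives were stricter peak thresholds, merging of peaks within 1 kb, the first 5 kb of the gene, other coverage thresholds and the omission of genes that overlap another coding gene.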

Additional observations from a re-analysis of the deposited data

How the results depend on the processing

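Merging peaks within 1 kb changed no count, and 87 of 87 genes stayed on the same side of the 25-point step. Over all coding genes the counts were unchanged too, with 6590 at least 25 points higher with the inhibitor and 672 with the control. Because this setting altered none of the counts, it could not test how firm they are. With q of at most 0.05, marked control genes fell to 1, genes with 25 points more control coverage to 0, and the median difference rose to 73.5 points. With −log10 q of at least 5, marked genes numbered 0 in the control and 30 in the inhibitor list (0.557% and 11.0% of all coding genes), 34 genes were at least 25 points higher with the inhibitor (13.2%), 0 with the control, and the median difference was 0. With a fold enrichment of at least 3 the same values were 0, 29, 33, 0 and 0 (0.461%, 10.6% and 12.9% for the first 3). With the first 5 kb (the better covered end where strand was unknown), 23 genes were marked in the control list (13.0% of all coding genes), 2 were at least 25 points higher in it (4.94%), and Cox7a2 turned to -4.96 points. Among 69 genes that overlap no other coding gene, 0 had 25 points more control coverage (3.36%). Any covered base marked 60 control genes (55.3%), and an 80% threshold marked 5 (1.49%). No paired analysis was possible because each condition has 1 library. With 1 library per condition no replicate could be left out, and depth is unknown.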

Other observations

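The same naming pattern also matches 18 pseudogenes, which were kept out of all counts. Peaks of any strength touched 1 of 18 in the control list (Atp5l-ps2, inside Brip1) and 4 of 18 in the inhibitor list. Strong peaks lay on 0 and 2 of 18, Cox7c-ps1 inside Rab40c and Ndufa12-ps inside Rabgef1, and both of these host genes are coding genes. Uqcrh-ps1, outside any coding gene, was wholly covered by a weak inhibitor peak. The other 14 had no peak in either list, while Cox7c, Ndufa12 and Uqcrh themselves carried strong inhibitor peaks.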
